A study of Homo sapiens with 24 samples.

Results

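Histone genes were described in H1, H9 and HSF1, established lines of human embryonic stem cells, over the 8 groups of 24 Affymetrix U133 Plus 2.0 arrays. Members were the genes whose symbol in the array annotation begins with H1-, H2AC, H2AZ, H2AX, H2AJ, H2BC, H3C, H3-, H4C or MACROH2A and that had a probe set naming no other gene. This gave 58 genes of 19775, with 82 of the 41097 probe sets that carried 1 symbol. By symbol, 42 were replication-dependent genes, namely the C-numbered genes and H1-1 to H1-6. A further 11 were variant genes (H1-7, H1-8, H1-10, H2AJ, H2AX, H2AZ1, H2AZ2, H3-3A, H3-4, MACROH2A1 and MACROH2A2). The other 5 names were the antisense gene H1-10-AS1, the pseudogenes H1-9P, H2AC5P and H4C10P, and H2BC12L, a gene like H2BC12.

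Histones are the proteins around which DNA is wound: pairs of H2A, H2B, H3 and H4 form the nucleosome core and H1 binds the DNA that enters and leaves it. Replication-dependent genes lie mostly in clusters, are copied mainly while DNA is being made, and yield messages that end in a stem-loop instead of a poly(A) tail, although some of them also give polyadenylated transcripts. Most variant genes lie singly, are read throughout the cell cycle and give polyadenylated messages, and many of their products replace core histones at particular places in the genome. Human embryonic stem cells divide fast and spend much of their cycle in S phase.

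In the first 12 arrays each line was grown either on mouse embryonic fibroblast feeders or without feeders, and each culture received either DMSO, the solvent control, or 250 nM AZD3965 for 5 days. AZD3965 is a small molecule that blocks MCT1, through which cells move lactate in and out. This gave 4 groups of 3 arrays, 1 per line: feeder-supported with DMSO, feeder-supported with inhibitor, feeder-free with DMSO and feeder-free with inhibitor. In the other 12 arrays feeder-free H9 and HSF1 cells were kept either in unconditioned medium or in conditioned medium, taken from cultures of mouse fibroblasts, with 3 biological replicates per group. For conditioned medium the labels state 5 days but the design text 24 hours, so its duration is not settled here. The sources used here do not say whether feeder cells were removed before RNA was isolated, so on feeder-supported arrays RNA of the mouse cells cannot be told apart from RNA of the human cells.

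Of the 58 histone genes, 42 lie on chromosome 6, and 46 were read by a single probe set. Genes were tested where the log2 value exceeded 5 on at least 3 of the 12 arrays of an experiment. By this filter 44 members were tested in the feeder and inhibitor experiment (29 replication-dependent, 11 variant and 4 others) and 42 in the medium experiment (27, 11 and 4). The genes left out of both were H1-5, H2AC16, H2BC1, H2BC11, H2BC13, H2BC14, H2BC15, H2BC17, H3C1, H3C2, H3C7, H3C11, H4C10P and H4C13, and H4C1 and H4C8 were left out of the medium experiment. Counts given here therefore describe the tested members and not the whole family. H3-3B had no probe set naming it alone and was not analysed here. The probe sets of 18 members carry the suffix _s_at or _x_at, which marks probes that can read several gene copies. Among these are H2AC6, H2BC5, H2BC6, H2BC12L, H2AC14, H3C8 and H4C11, so their values may hold signal of near-identical copies. The sources used here do not name the primer that started the labelling. A primer on poly(A) tails reads messages that end in the stem-loop poorly, so the values of replication-dependent genes may stand only for the polyadenylated share of their messages, and their differences for a change in that share.

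The promoters of 4 members on which the results turn are shown because these genes moved most and in opposite directions. H2BC12, H2AC6 and H2BC5 were lower and H2BC6 was higher on feeders with DMSO. Each sequence holds the 250 bases before the gene's start, 5′ to 3′ on the gene's strand, from RefSeq (build GRCh38.p14). Capitals mark 3 motifs found by letter search on both strands: the octamer ATTTGCAT, which transcription factors of the POU family bind, the CCAAT box (CCAAT) and the TATA box (TATAAA). Where TATAAA occurred on both strands over the same letters, both matches were counted and the capitals run together. The regions are chr6:27146859-27147108 on the minus strand for H2BC12, and on the plus strand chr6:26123922-26124171 for H2AC6, chr6:26157871-26158120 for H2BC5 and chr6:26183511-26183760 for H2BC6.
H2BC12: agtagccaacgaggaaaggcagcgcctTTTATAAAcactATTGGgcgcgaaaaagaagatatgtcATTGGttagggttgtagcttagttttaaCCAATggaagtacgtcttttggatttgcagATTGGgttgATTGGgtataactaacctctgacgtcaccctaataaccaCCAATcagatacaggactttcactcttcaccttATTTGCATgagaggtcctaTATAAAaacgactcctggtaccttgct
H2AC6: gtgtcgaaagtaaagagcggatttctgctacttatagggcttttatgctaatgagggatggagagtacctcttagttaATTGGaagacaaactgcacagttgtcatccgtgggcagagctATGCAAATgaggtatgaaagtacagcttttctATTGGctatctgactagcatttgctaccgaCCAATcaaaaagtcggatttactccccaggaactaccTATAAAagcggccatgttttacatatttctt
H2BC5: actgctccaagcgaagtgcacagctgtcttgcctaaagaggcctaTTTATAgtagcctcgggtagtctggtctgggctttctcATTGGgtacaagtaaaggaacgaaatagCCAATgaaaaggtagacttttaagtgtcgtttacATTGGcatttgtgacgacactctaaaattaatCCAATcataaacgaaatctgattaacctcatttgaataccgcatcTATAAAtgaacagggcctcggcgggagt
H2BC6: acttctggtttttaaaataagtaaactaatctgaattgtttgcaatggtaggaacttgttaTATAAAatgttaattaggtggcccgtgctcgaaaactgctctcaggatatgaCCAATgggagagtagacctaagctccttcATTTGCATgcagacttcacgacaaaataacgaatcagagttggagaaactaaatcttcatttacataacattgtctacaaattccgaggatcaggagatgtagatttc

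The octamer was present in the windows of H2BC12, H2AC6 and H2BC6 and these letters did not occur in that of H2BC5. CCAAT occurred 6 times in the window of H2BC12, 3 times in that of H2AC6, 4 times in that of H2BC5 and 1 time in that of H2BC6. Of the 58 members 51 had a promoter entry. The octamer lay in 10 of 13 windows of replication-dependent H2B genes and 6 of 8 of replication-dependent H2A genes, against 1.66% of all 27305 promoters. No window of a replication-dependent H1, H3 or H4 gene, and none of the 11 variant windows, held it. CCAAT was in 84.3% of the member windows and 33% of all promoters, and TATAAA in 60.8% and 11.1%. The 300-base promoter entries of H2AC6 and H2BC4, which are read in opposite directions, overlapped by 255 bases.

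Both feeder-supported HSF1 arrays stood apart from the rest: they correlated with the other 22 arrays at 0.86 to 0.961, against 0.948 to 0.998 among those 22. Fibroblast markers, all 13 with a probe set, had a mean log2 level of 8.14 to 9.14 on feeder-supported arrays and 7.07 to 8.42 on feeder-free arrays of the same experiment. With DMSO 5 of 13 were higher on feeders and none was lower, while 15.2% of all genes tested were called higher. Among the 10 of 13 with a difference above 0 were TWIST1 (8.68 with feeders, 4.94 without) and VIM (13.8 and 11.7). THY1 (10.7 and 11.4) and POSTN (5.33 and 5.77) went the other way. With inhibitor 3 of 13 were higher and 3 lower (median 0.30), while 19.3% of all genes tested were called higher and 27.8% lower. RMA values have no zero, and the lowest marker on feeder-free arrays with DMSO was LUM at 3.81. Of 8 tested pluripotent stem cell markers 5 were lower on feeders with DMSO, while 24.1% of all genes tested were called lower. The mean level of these markers was 12 to 12.3 against 12.6 to 12.7 without feeders. Their median difference was -0.51. All genes with a mean level above 9, where these markers lie, also had a median of -0.51, with 31% called lower.

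The level of H2BC12, a replication-dependent H2B gene, moved most among the members that fell on feeders. Its log2 values in H1, H9 and HSF1 were 10.37, 10.22 and 9.63 without feeders and 8.84, 8.03 and 7.56 with feeders, both with DMSO. All 3 feeder-free arrays lay above all 3 feeder-supported arrays, and the difference was -1.93 (SE 0.341, limma adjusted p = 0.00481), or 3.81-fold lower. H2AC6, a replication-dependent H2A gene, gave 9.12, 8.92 and 9.12 without feeders and 8.03, 7.10 and 7.24 with feeders, a difference of -1.60 (SE 0.216, limma adjusted p = 0.0013). H2BC5, another H2B gene, gave 8.79, 8.93 and 8.02 without feeders and 7.83, 7.14 and 7.12 with feeders, a difference of -1.22 (SE 0.323, limma adjusted p = 0.0185). For the probe sets chosen for these genes the groups did not overlap, and the direction was the same in 3 of 3 lines. Without H9 the adjusted p rose to 0.0793 for H2BC12, 0.0525 for H2AC6 and 0.113 for H2BC5 (limma), and H2BC12 lost its call with the ACTB covariate described below. H2BC5 lost its call with that covariate, without H1 and after quantile normalization too. A second probe set of H2BC5, 222067_x_at, differed by -0.60 (limma adjusted p = 0.112 over all probe sets) and was higher on feeders in HSF1 (8.175 against 7.928). Without the feeder-supported HSF1 arrays the differences were -1.67, -1.44 and -1.34, each past the threshold.

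With the inhibitor present in both cultures, these 3 genes were not called lower on feeders. H2BC12 differed by -0.53, H2AC6 by -0.49 and H2BC5 by 0.35. In H1, H9 and HSF1 the differences were 0.47, -0.27 and -1.78 for H2BC12 and -0.12, -0.49 and -0.86 for H2AC6. For H2BC5 they were -0.01, -0.31 and 1.35, and its second probe set differed by -0.06. By group mean, the feeder-free level with inhibitor was near that on feeders with DMSO. These means were 8.24 and 8.14 for H2BC12, 7.43 and 7.45 for H2AC6 and 7.35 and 7.36 for H2BC5. The comparisons of feeders with DMSO and of inhibitor without feeders share the 3 feeder-free DMSO arrays, so they are not independent.

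**Figure D1:**
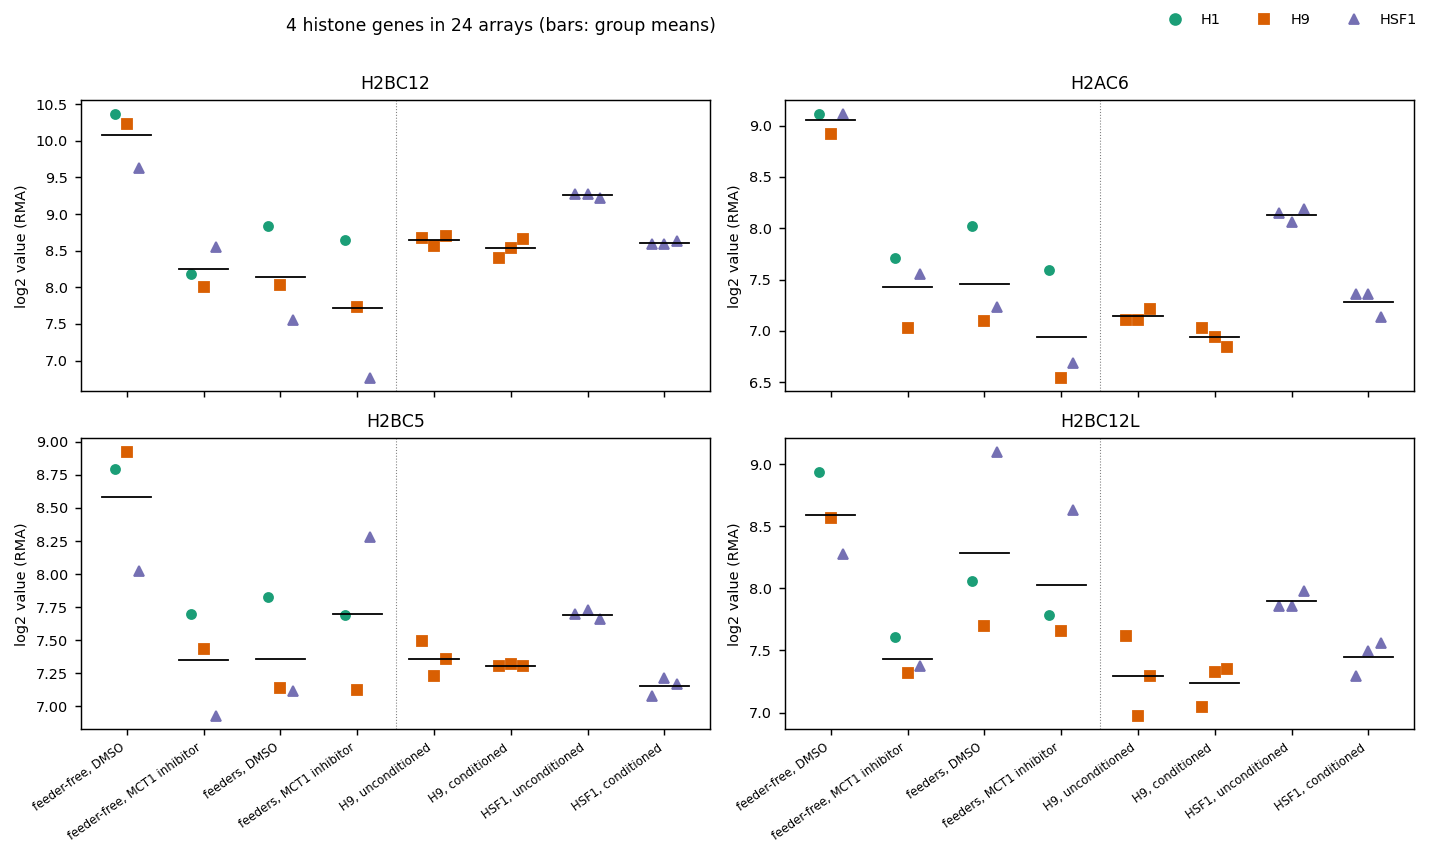
Log2 values (y axis) of H2BC12, H2AC6, H2BC5 and H2BC12L on each of the 24 arrays by group (x axis), with the line given by shape and colour and the group mean as a bar. The feeder-free DMSO arrays are the highest of the 24 for H2BC12 and H2AC6, and in unconditioned medium HSF1 lies above H9 for all 4 genes.

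Over all members with DMSO, 9 of 44 were higher and 8 of 44 lower on feeders, while 39.3% of all genes tested were called (15.2% higher and 24.1% lower). Among 29 replication-dependent genes 4 were higher and 6 lower, and among 11 variant genes 2 were higher and 2 lower. The median difference was 0.00 for replication-dependent genes, 0.10 for variant genes and -0.19 for all genes tested. By family, 1 of 7 replication-dependent H2A genes was higher and 3 lower (median -0.51), and of 7 H2B genes 1 was higher and 2 lower (median -0.40). Of 5 replication-dependent H1 genes 1 was higher and 1 lower, with 4 above 0 and a median of 0.40, and of 3 H3 genes 1 was higher and none lower, with all 3 above 0 and a median of 0.56. None of 7 H4 genes was called (median -0.02, 0 at an unadjusted p under 0.05 by limma). With quantile-normalized arrays the counts were 5 higher and 8 lower. Of all genes with mean levels under 7, 7 to 9 and above 9, 11.2%, 8.91% and 7.49% were then called higher. The shares called lower were 9.01%, 7.9% and 10.8%. The count of 17 fell to 4 without H1, to 1 without H9, to 6 without the line as a block and to 3 with the gap between ACTB 3-prime and 5-prime probe sets as a covariate. It was 24, with 10 higher and 14 lower, without the feeder-supported HSF1 arrays. For these other settings, here and below, the share of all genes called is not given. Changes of these counts therefore cannot be read as particular to histone genes.

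The other members lower with DMSO were linker histones and H2A genes. H1-2, a replication-dependent linker histone, had values of 8.16, 7.66 and 7.92 without feeders and 6.82, 6.65 and 6.66 with feeders. The groups lay apart, and the difference of -1.20 (SE 0.171, limma adjusted p = 0.0016) passed the threshold in each of 11 other settings tried. H1-10, a linker histone variant, gave 9.80, 10.54 and 9.75 without feeders and 9.27, 8.94 and 8.35 with feeders, a difference of -1.18 (SE 0.248, limma adjusted p = 0.00881). After quantile normalization it was -0.68, still called, and it lost its call without H9 (limma adjusted p = 0.101), with the ACTB covariate (0.191) and without the line as a block. H2AC17 (-0.89), H2AC25 (-0.62) and H2AX (-0.58), the variant that is phosphorylated at DNA breaks, were lower too, each in 3 of 3 lines. By mean level, all genes at 7 to 9, where H2AC25 lies, had a median of -0.44 with 34% called lower. Above 9, where H2AX lies, it was -0.51 with 31% called lower, and under 7, where H2AC17 lies, 0.39 with 10.4% called lower. H2BC12, H2AC6, H2BC5 and H1-2 also lie at 7 to 9, and H1-10 above 9. H2AC17 lost its call in 3 of 11 other settings (without H1, without H9 and with the ACTB covariate), and H2AC25 and H2AX in 6 of 11. After quantile normalization H2AC25 differed by -0.17 and H2AX by -0.23. Other probe sets of these genes went the other way, 231681_x_at of H2AC25 at 0.44 and 212524_x_at of H2AX at 0.43, neither called over all probe sets.

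H2BC6 was the member with the largest rise on feeders. Its values in H1, H9 and HSF1 were 7.89, 7.89 and 7.55 without feeders and 9.11, 8.80 and 10.08 with feeders, both with DMSO, so the groups did not overlap. The difference was 1.56 (SE 0.365, limma adjusted p = 0.0125), with 1.22 in H1, 0.91 in H9 and 2.54 in HSF1. With DMSO the call was lost in 3 of 11 other settings: without H1 (limma adjusted p = 0.0623), without H9 (0.065) and with the ACTB covariate, where the difference was 0.93 (0.303). With inhibitor in both cultures it was 2.33 (SE 0.365, limma adjusted p = 0.00209), or 5.04-fold, and passed in each of 11 other settings. H2AC4, an H2A gene, was higher by 0.79 with DMSO and 1.41 with inhibitor, and in HSF1 alone by 1.62 and 2.17. Its call with DMSO was lost in 6 of 11 other settings, among them quantile normalization (limma adjusted p = 0.0952), without H1 (0.0998), without H9 (0.0962) and the ACTB covariate, where the difference was 0.30 (0.652). With inhibitor it was lost in 1 of 11, the ACTB covariate (limma adjusted p = 0.0859). Without the feeder-supported HSF1 arrays H2BC6 was higher by 1.09 with DMSO and 1.75 with inhibitor, and H2AC4 by 0.42 and 1.00, each past the threshold. The probe set of H2BC6 can read several copies. Of 13 fibroblast markers 5 were higher on feeders and none lower with DMSO, but 3 higher and 3 lower with inhibitor. The part of shared probes or of fibroblast RNA in these values was not tested.

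The remaining rises with DMSO were those of H1-8 (0.83), the linker histone of oocytes, H3C3 (0.71), H2AC5P (0.63), H1-7 (0.60), a linker histone of the testis, H1-10-AS1 (0.58), H1-3 (0.52) and H1-9P (0.52). These calls did not hold throughout: H3C3, H1-7, H1-10-AS1, H1-3 and H1-9P each lost the call in 6 of 11 other settings, quantile normalization among them, and H1-8 and H2AC5P in 4. Without the feeder-supported HSF1 arrays H3C3 differed by 0.37 (limma adjusted p = 0.0552). Their feeder-free levels ran from 5.25 for H3C3 to 6.37 for H2AC5P, below or close to the medians of the arrays (6.09 to 6.35), a range in which background sets much of the signal. Genes with a mean level under 7 as a whole were shifted in the same direction. Over 6658 such genes the median difference was 0.39 and 29.5% were called higher, and the 25 members in that range had a median of 0.39 with 8 called higher. Genes with a mean level above 9 had a median of -0.51.

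With inhibitor in both cultures, 15 of 44 members were higher and 5 lower on feeders, while 47.1% of all genes tested were called (19.3% higher and 27.8% lower). Beside H2BC6 and H2AC4 the rises included H1-8 (0.97), H1-3 (0.94), H1-1 (0.90), H2AC5P (0.78), H2BC3 (0.75) and H4C1 (0.65). H4C1 exceeded a log2 value of 5 only on feeder-supported arrays and lay at 4.307 to 4.941 without feeders. It was thus tested only through the cultures where it is high, so its call carries no weight. The falls were those of H1-10 (-1.26), H2AC17 (-0.87), H2BC21 (-0.84), H1-2 (-0.74) and H2AX (-0.61). The groups of H2AX overlapped, and it lost its call in 6 of 11 other settings, with -0.23 after quantile normalization and -0.038 as the mean of its probe sets. H1-10 and H2BC21 lost the call in 2 settings, H2AC17 and H1-2 in 1, and the 6 rises listed beside H2BC6 and H2AC4 in 1 to 4 (H4C1 in 4 of the 9 settings that kept it). Replication-dependent genes had a median difference of 0.25, variant genes of 0.06 and all genes of -0.20. Of the 15 rises 14 were at a mean level under 7. All 6658 genes in that range had a median of 0.42 with 37.7% called higher, and the 25 members there a median of 0.56. Above 9, all genes had a median of -0.53 with 38.3% called lower. The count of 20 fell to 3 without H1, to 10 without H9, to 12 without the line as a block and to 4 with the ACTB covariate.

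**Figure D2:**
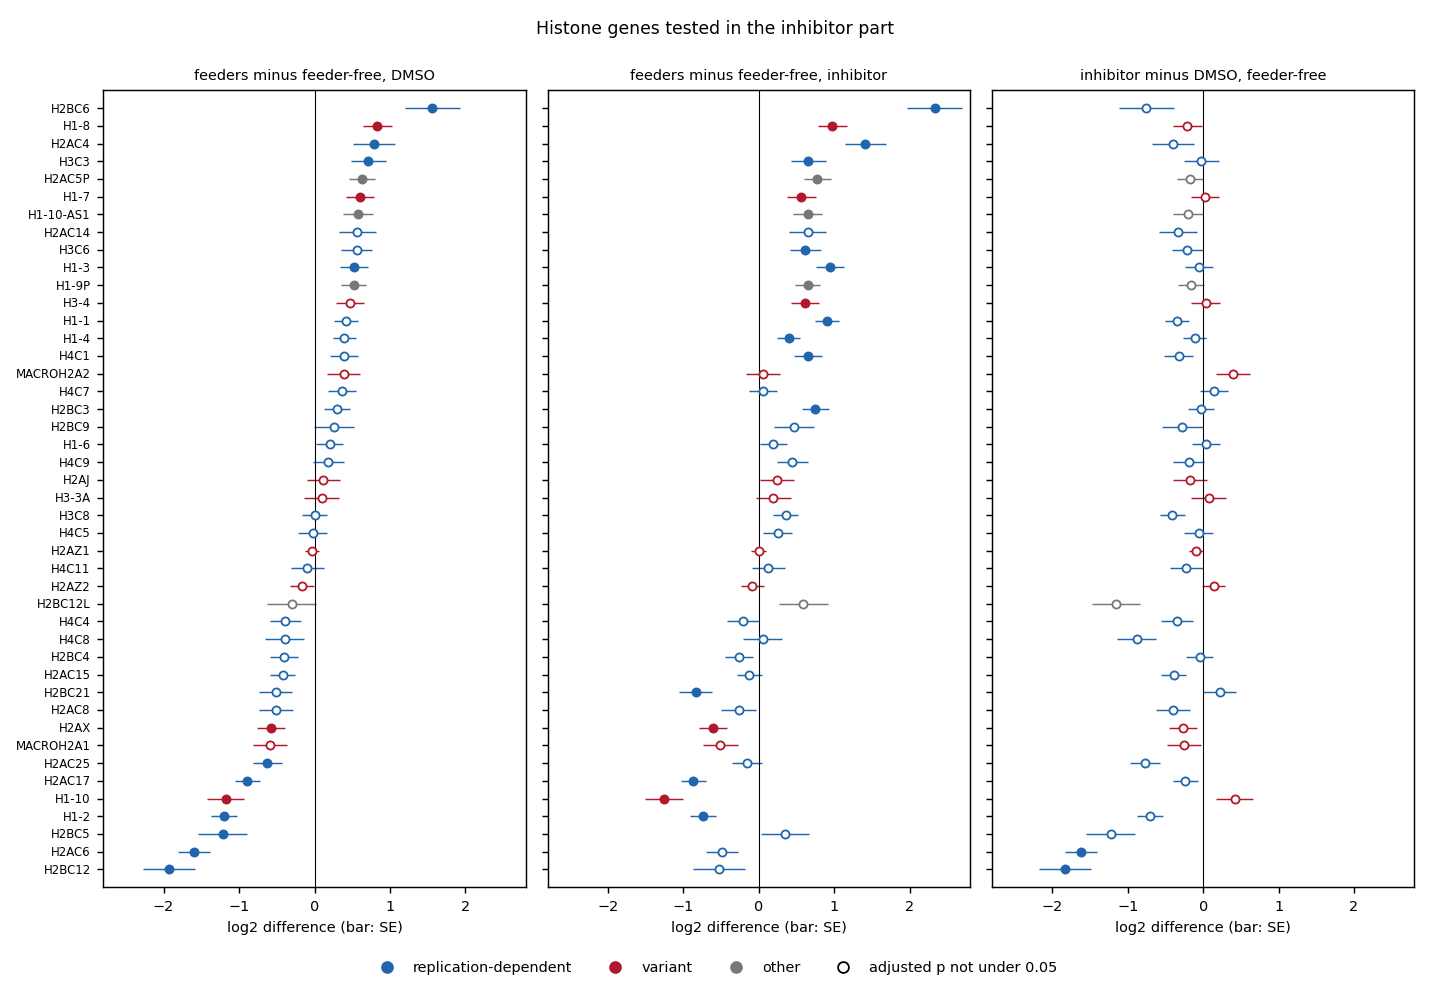
Log2 differences (x axis) with the SE of the limma fit for the 44 tested histone genes (y axis), in 3 panels: feeder-supported minus feeder-free with DMSO, the same with inhibitor, and inhibitor minus DMSO without feeders. Colours give the class and filled points passed the threshold. H2BC6 tops both feeder panels, and H2BC12 and H2AC6 are the only filled points of the inhibitor panel.

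Without feeders, the inhibitor lowered H2BC12 and H2AC6. H2BC12 stood at 10.37, 10.22 and 9.63 with DMSO and at 8.18, 8.001 and 8.55 with inhibitor in H1, H9 and HSF1. The groups did not overlap, and the difference was -1.83 (SE 0.341, limma adjusted p = 0.029), with -2.19, -2.22 and -1.08 in the 3 lines. H2AC6 stood at 9.12, 8.92 and 9.12 with DMSO and at 7.71, 7.03 and 7.55 with inhibitor. Here too the groups lay apart, and the difference was -1.62 (SE 0.216, limma adjusted p = 0.00537), or 3.08-fold lower.

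These were 2 calls of 44 members, both lower, while 0.842% of all genes tested were called (0.604% higher and 0.238% lower). Among 29 replication-dependent genes 3 had a difference above 0 and the median was -0.33. Among 11 variant genes 6 were above 0 with a median of 0.02, and over all genes tested the median was -0.01. The groups did not overlap for 17 of 44 members, 16 lower and 1 higher, against 22.6% of all genes tested. Of these 15 did not pass, 14 lower with inhibitor and 1 higher, H2AZ2 at 0.14. The largest were H2BC5 at -1.23 (limma adjusted p = 0.144), H2BC12L at -1.16 (0.172), H4C8 at -0.88 (0.209), H2AC25 at -0.77 (0.127), H2BC6 at -0.75 (0.699) and H1-2 at -0.70 (0.106), and the other 8 lower ones ran from -0.41 to -0.17. H2BC4, whose promoter overlaps that of H2AC6, differed by -0.05. Fibroblast markers differed by a median of 0.46 in the same comparison with none of 13 called by limma (3 at an unadjusted p under 0.05).

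The number of calls depended on the lines and the fit. By limma it was 0 without H1, without H9 or without the line as a block, where 6, 7 and 9 members had an unadjusted p under 0.05, and 1 after quantile normalization (H2AC6). It was 5 without HSF1, 9 without the feeder-supported HSF1 arrays, which enter only through the shared spread, and 4 with the ACTB covariate. The difference of H2BC12 ran from -2.21 to -1.63 and that of H2AC6 from -1.73 to -1.49 over these settings.

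On feeders no member was called for the inhibitor, in either direction, by limma, with 0.00581% of all genes tested called. At an unadjusted p under 0.05 there were 2 members, H2AC6 (-0.51) and H2BC3 (0.42). The inhibitor's effect with feeders minus that without was 1.40 (SE 0.482) for H2BC12, 1.11 (SE 0.306) for H2AC6 and 1.57 (SE 0.457) for H2BC5. None of these passed the threshold (limma adjusted p = 1, 0.971 and 1), and 0.0174% of all genes did. These 3 genes were the only members with an unadjusted p under 0.05 in that test, so a difference of the inhibitor's effect between cultures was not established for any member.

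Genes with a known part in making and placing histones were read as companion lists. On feeders with DMSO none of 13 genes of histone RNA synthesis and 3-prime processing was higher and 6 were lower, with a median of -0.61, while 24.1% of all genes tested were called lower. They included NCBP1 (-1.28), a cap-binding protein, CPSF2 (-0.95), a subunit of the cleavage complex, and NPAT (-0.93), the coactivator of replication-dependent histone genes. SLBP, which binds the stem-loop of histone messages, differed by -0.50 (limma adjusted p = 0.222). Of 22 chaperone and deposition genes 1 was higher and 8 lower (median -0.51), among them the importin IPO4 (-1.28), the H1 and H3-H4 chaperone NASP (-0.66) and SUPT16H (-0.77), a subunit of FACT. Of 21 tested S phase genes 12 were lower and none higher (median -0.57), with the smallest p for POLA1 (-1.26), MCM5 (-1.02) and MCM2 (-0.80). The mean level of the S phase list ran from 9.31 to 10.5 over the 24 arrays. Genes with a mean level above 9 as a whole had a median of -0.51, with 31% called lower. Without feeders the inhibitor gave no call in the 3 lists, with medians of -0.03, -0.06 and -0.10 and 0, 0 and 1 gene at an unadjusted p under 0.05 (limma).

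The variant genes differed in how far they ranged. H2AZ1, the main gene of H2A.Z, ran from 13.48 to 13.85 over the 24 arrays at its chosen probe set. It passed in none of the comparisons, and its feeder difference with DMSO was -0.03 (SE 0.0954). Its other probe set, 200853_at, ran from 12.915 to 13.764, with feeder differences of -0.28 with DMSO and -0.26 with inhibitor. H3-3A, a gene of the replacement histone H3.3, ran from 7.78 to 8.78, and MACROH2A2, one of 2 genes of macroH2A, from 7.84 to 9.46. MACROH2A2 passed in no comparison. H2AJ ran from 9.47 to 10.86, and its chosen probe set differed by 0.12 on feeders with DMSO. Among its other probe sets 220936_s_at (-0.65, limma adjusted p = 0.0118 over all probe sets) and 228213_at (-0.63, limma adjusted p = 0.0173) were lower, while 39.5% of all probe sets were called.

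MACROH2A1 was read by 7 probe sets, which disagreed. The probe set with the highest level, 207168_s_at, gave 11.27, 11.69 and 11.49 without feeders and 10.88, 11.42 and 10.37 with feeders in H1, H9 and HSF1 with DMSO. These groups overlapped, and the difference of -0.59 (SE 0.228, limma adjusted p = 0.0555) was not called. Probe set 214500_at gave 4.65, 4.59 and 4.83 without feeders and 9.04, 9.41 and 10.77 with feeders. Its groups lay far apart, at a difference of 5.05 (SE 0.279, limma adjusted p = 1.11e-06 over all probe sets) with DMSO and 4.90 with inhibitor. On the 12 arrays of the medium experiment, all without feeders, it ran from 4.16 to 5.10, also below the array medians. A rise of that size was seen in no other probe set, and the other 5 tested differed by -0.59 to 0.48. The 0.48 was that of 1558780_a_at, at 4.952, 5.212 and 5.454 with feeders and 4.61, 4.907 and 4.666 without, with no overlap. It passed the filter only through feeder-supported arrays. Without feeders 214500_at exceeded 5 only in HSF1 with inhibitor (5.192), so it too was tested through the cultures where it is high. In 214500_at signal of the mouse feeder cells and of the human cells cannot be told apart.

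H2AZ2 and H3C6 were also read by probe sets that disagreed, as were H2BC5, H2AC25 and H2AX above. On feeders with DMSO the chosen H2AZ2 probe set differed by -0.17 and the 3 others by -0.68, -1.05 and -0.55, of which 212206_s_at (-1.05) passed at the level of probe sets. For H3C6, an H3 gene, 214616_at was higher on feeders (0.56, limma adjusted p = 0.0478 over all probe sets) and 236278_at lower (-0.83, limma adjusted p = 0.0117). Without feeders, 236278_at was lower with inhibitor by 1.28 on the log2 scale (-1.28, SE 0.197, limma adjusted p = 0.0148), and 214616_at differed by -0.21; 0.544% of all probe sets were called.

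**Figure D3:**
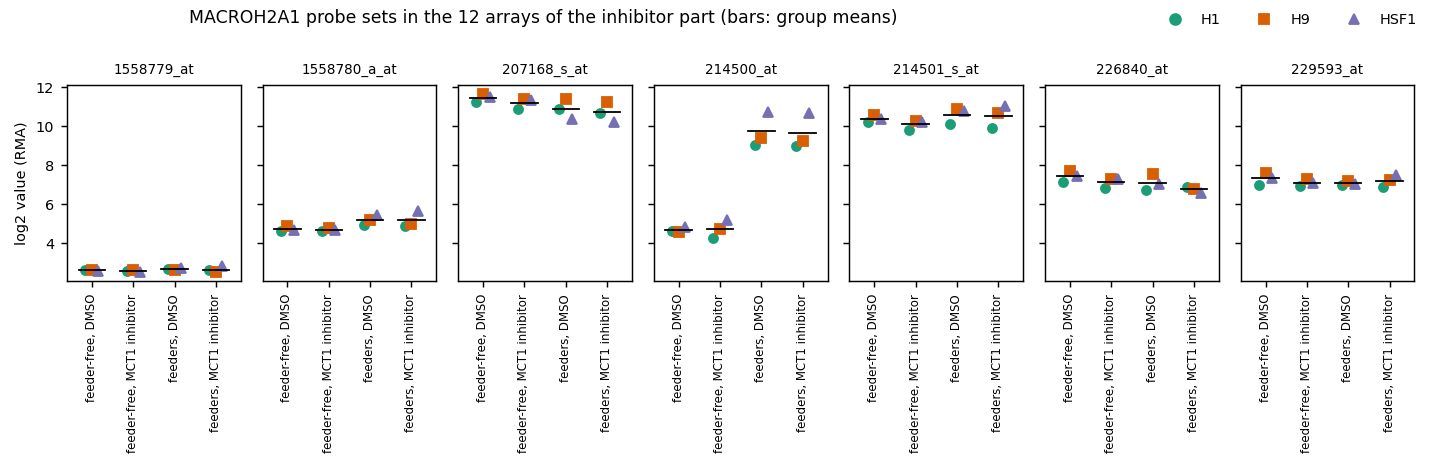
Log2 values (y axis) of the 7 MACROH2A1 probe sets on the 12 arrays of the feeder and inhibitor experiment by group (x axis), with lines by shape and colour and group means as bars. Probe set 214500_at lies at 9.01 to 10.77 on feeder-supported arrays and at 4.27 to 5.19 on feeder-free arrays, while no other probe set separates the cultures to that extent.

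In HSF1, H2AC6, H2BC12 and H2BC5 were lower in conditioned than in unconditioned medium. H2AC6 was 8.15, 8.06 and 8.19 in unconditioned and 7.36, 7.36 and 7.14 in conditioned medium, a difference of -0.85 (SE 0.0845, limma adjusted p = 3.26e-06). H2BC12 was 9.28, 9.27 and 9.22 against 8.60, 8.59 and 8.63, a difference of -0.65 (SE 0.0758, limma adjusted p = 1.66e-05). H2BC5 was 7.70, 7.73 and 7.66 against 7.08, 7.21 and 7.17, a difference of -0.54 (SE 0.0799, limma adjusted p = 0.000169). In none of the 3 did the groups overlap, and each call held in 13 other settings.

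MACROH2A1 fell as well in HSF1, from 11.55, 11.51 and 11.48 to 10.78, 10.86 and 10.61 (-0.77, SE 0.0715, limma adjusted p = 1.67e-06). At the level of probe sets 3 of its 4 tested probe sets passed, 207168_s_at (-0.77), 214501_s_at (-0.93) and 226840_at (-0.63), while 11.4% of all probe sets were called, and 229593_at differed by -0.46 (limma adjusted p = 0.0693). Here the probe sets moved in 1 direction, and 214500_at stayed near background. H2BC12L (-0.45), H2AC15 (-0.37) and H4C11 (-0.27) were also lower, and H1-10 (0.44) and H1-4 (0.41), both linker histones, were higher. Of 13 other settings H2AC15 and H4C11 lost the call in 6, H2BC12L in 5, H1-4 in 4 and H1-10 in 0. Other probe sets gave 0.12 for H2AC15 (214644_at, below the filter) and -0.29 for H2BC5 (222067_x_at, limma adjusted p = 0.149). In all 2 of 42 members were higher and 7 lower, while 18.3% of all genes tested were called (8.57% higher and 9.78% lower). The count of 9 fell to 5 without replicate 1 or without replicate 2 of HSF1 in unconditioned medium.

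In H9, the members called with conditioned medium were H1-1, H2AZ2, H2BC21, MACROH2A1 and H4C11. H1-1, a replication-dependent linker histone, rose from 4.93, 4.92 and 4.92 to 5.36, 5.46 and 5.36 (0.47, SE 0.102, limma adjusted p = 0.00543), a low level at which background makes up much of the signal. H2BC21 fell by 0.41 on the log2 scale (-0.41), MACROH2A1 by 0.28 (-0.28) and H4C11 by 0.26 (-0.26). The probe sets of MACROH2A1 disagreed in H9. Beside the chosen one, 226840_at was lower (-0.40, limma adjusted p = 0.0363 over all probe sets), from 6.888, 7.26 and 7.055 to 6.786, 6.629 and 6.582, with no overlap, while 10.1% of all probe sets were called. The others tested, 214501_s_at and 229593_at, differed by 0.01 and 0.10 and were not called. H2AZ2 passed at 0.31 with overlapping groups, at 11.45, 11.03 and 11.02 in unconditioned and 11.39, 11.48 and 11.56 in conditioned medium. Of 14 other settings the call was lost in 9 for H4C11, 7 for H2AZ2, 4 for H2BC21 and 1 for H1-1. MACROH2A1 lost it in 4 and turned in 1 more, with differences from -0.32 to 0.10.

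That gave 2 of 42 members higher and 3 lower in H9, while 16.4% of all genes tested were called (3.45% higher and 13% lower). In H9 in unconditioned medium the gap between 3-prime and 5-prime probe sets for ACTB, which widens as RNA degrades, ran from 1.07 to 3.25, against 1.42 to 1.84 in conditioned medium, and its part in these calls was not tested beyond the settings that follow. The count of 5 became 9 without replicate 1 of H9 in unconditioned medium, 1 without replicate 3, 3 without any 1 of the conditioned replicates, 3 with the ACTB covariate, 3 without the intensity trend and 0 without replicates 2 and 3 together.

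The effect of conditioned medium differed between the lines for 4 members, each lower in HSF1 relative to H9. The difference between the effects, HSF1 minus H9, was -0.64 (SE 0.12, limma adjusted p = 0.00522) for H2AC6 and -0.54 (SE 0.107, limma adjusted p = 0.00779) for H2BC12. It was -0.49 (SE 0.113, limma adjusted p = 0.0164) for H2BC5 and -0.49 (SE 0.101, limma adjusted p = 0.00984) for MACROH2A1. In H9 itself H2AC6 differed by -0.20, H2BC12 by -0.11 and H2BC5 by -0.05, none of them called. These were 0 members higher and 4 lower of 42, with 7.73% of all genes tested called (5.65% higher and 2.08% lower). Without replicate 1 of H9 in unconditioned medium 10 members were called.

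**Figure D4:**
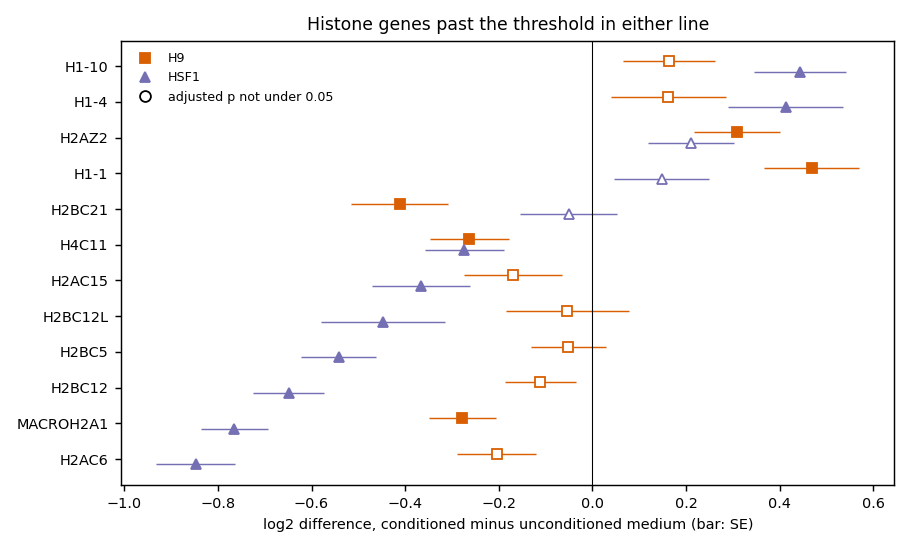
Log2 differences between conditioned and unconditioned medium (x axis) with the SE of the limma fit, for the 12 histone genes past the threshold in either line (y axis), in H9 (squares) and HSF1 (triangles). Filled points passed. H2AC6, H2BC12 and H2BC5 lie at -0.85 to -0.54 in HSF1 and at -0.20 to -0.05 in H9.

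S phase and histone-handling genes were read in the same arrays. In HSF1 8 of 21 S phase genes were lower with conditioned medium and none higher (median -0.16), while 9.78% of all genes tested were called lower. The smallest p were those of RRM2 (-0.40), CDC6 (-0.40) and CCNE2 (-0.76). Of 13 genes of histone RNA synthesis and 3-prime processing 2 were lower, CASP8AP2 (-0.29) and SLBP (-0.21). Of 22 chaperone genes 3 were lower, among them ASF1A (-0.44), an H3-H4 chaperone, and HAT1 (-0.32), which acetylates new H4. In H9, where 13% of all genes tested were called lower, 2 of 21 S phase genes were lower (median -0.08), and 4 of 13 processing genes, among them LSM11 (-0.59), a subunit of the U7 particle, and NCBP1 (-0.39).

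In unconditioned medium the lines differed in 11 of 42 members, 9 higher and 2 lower in HSF1 than in H9, while 23.6% of all genes tested were called (10.2% higher and 13.4% lower). This comparison shares the unconditioned arrays with those of conditioned medium. H2AC6 was 7.11, 7.10 and 7.21 in H9 and 8.15, 8.06 and 8.19 in HSF1, with no overlap and a difference of 0.99 (SE 0.0845, limma adjusted p = 4.26e-07). H2BC12 was 8.67, 8.56 and 8.70 in H9 and 9.28, 9.27 and 9.22 in HSF1 (0.61, SE 0.0758, limma adjusted p = 2.88e-05), and H1-10 was higher by 0.70. These 3 calls held in 14 other settings.

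H2BC12L (0.60), H2AC8 (0.41), H2AC25 (0.39), H2AZ2 (0.36), H2BC5 (0.33) and H2AC14 (0.29) were higher in HSF1 too, and H3-3A (-0.32) and H2AX (-0.28) lower. Of 14 other settings H2AC8 and H2AC14 lost the call in 6, H2AZ2 and H2AX in 5, and the other 4 in 1 or 2. Of 27 replication-dependent genes 6 were higher and none lower, with 22 above 0 and a median of 0.20. Of 7 replication-dependent H2A genes 4 were higher and all 7 were above 0 (median 0.32), against a median of 0.00 over all genes tested. The count of 11 was 17 without replicate 1 of H9 in unconditioned medium, 7 without replicate 3, 7 with the ACTB covariate and 4 without replicates 2 and 3.

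The order of the lines was not the same in the feeder and inhibitor experiment, where each line has 1 array per condition and the lines were not tested against each other. HSF1 minus H9 for H2BC12 was 0.61 in unconditioned medium, -0.60 without feeders with DMSO, 0.55 without feeders with inhibitor and 0.07 in conditioned medium. For H2AC6 these values were 0.99, 0.20, 0.52 and 0.35. For H1-10 they were 0.70, -0.79, -1.03 and 0.98, so the direction turned between the experiments.

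By group mean, H2BC12 was highest without feeders with DMSO, at 10.07 ± 0.394 (SD, n = 3). HSF1 in unconditioned medium followed at 9.26 ± 0.031 (n = 3), and these groups did not overlap. Then came H9 in unconditioned medium at 8.64 ± 0.0726, HSF1 in conditioned medium at 8.61 ± 0.0214 and H9 in conditioned medium at 8.53 ± 0.134, whose ranges overlapped (n = 3 each). The lowest means were those without feeders with inhibitor at 8.24 ± 0.278, with feeders and DMSO at 8.14 ± 0.65 and with feeders and inhibitor at 7.71 ± 0.943 (n = 3 each), which overlapped too. From the third group on, the ranges of neighbouring groups overlapped. The SD spans 3 lines in the feeder and inhibitor experiment but replicates of 1 line in the medium experiment. This order crosses both experiments, and the sources used here do not say whether their arrays were normalized together. It was not tested, and the share of all genes without overlap is not given.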

How the data were processed

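Biotin-labelled total RNA was hybridised to 24 arrays, and log2 values of 54675 probe sets were deposited as 1 table, made with RMA per the submitters' processing notes. The sources used here do not give the software version, the labelling primer or whether all arrays were normalized together. The number of arrays limits the precision. Groups came from sample titles. Of all probe sets 41097 carried 1 symbol, 1801 several and 11777 none, and 28 named a histone gene with other genes and were not used. A gene took its probe set with the highest mean over the 24 arrays. All genes past the filter (17218 and 16572 in the 2 experiments of 12 arrays) entered linear models in R 4.3.3, with limma 3.58.1 and its eBayes with trend. Benjamini-Hochberg adjustment ran over all genes fitted, and calls needed an adjusted p under 0.05. Replicate numbers stand for lines in the feeder and inhibitor experiment, so the line was a block there; the correlation of same-line deviations from group means ran from 0.0524 to 0.919. In the medium experiment no block was used, and p-values measure the spread between biological replicates of 2 lines. The fit was tested on simulated data. Probe sets were also fitted singly. The members and lists were chosen with earlier results of these data known. Named genes were, per comparison, up to 8 largest rises and 8 largest falls among members past the threshold that moved alike in every line or whose groups did not overlap, the variant genes, and up to 3 genes of each companion list with the smallest p; H2BC4, H2BC12L, H4C8, SLBP and single probe sets were added after their values were seen. Alternatives were quantile normalization, other probe set choices, no filter, no trend, other blocks and leaving out arrays. The ACTB covariate, the fit without 2 H9 arrays and the probe set fit were added after seeing the data. Promoters were searched for letters only.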

Additional observations from a re-analysis of the deposited data

Results flagged for a closer look

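For 4 histone genes the effect of conditioned medium differed between HSF1 and H9 by a test of the difference itself (limma, adjusted over all genes tested). The difference, HSF1 minus H9, was -0.64 for H2AC6, -0.54 for H2BC12, -0.49 for H2BC5 and -0.49 for MACROH2A1. In HSF1 the 3 replicates in conditioned medium lay below the 3 in unconditioned medium for each of these genes. The interaction of H2AC6 and that of H2BC12 passed the threshold in each of 20 other settings, that of MACROH2A1 in 19 and that of H2BC5 in 18.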

How the results depend on the processing

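The counts of called histone genes changed by over 1.5 times under these settings. The shares of all genes called under them are not given here, so the changes cannot be read as particular to histone genes. Without the line as a block (no replicate block) the feeder comparison gave 6 with DMSO and 12 with inhibitor, and the inhibitor without feeders gave 0. With the ACTB covariate, chosen after seeing the data, the counts were 3 and 4 for feeders, 4 for the inhibitor without feeders, 3 for conditioned medium in H9 and 7 for the lines. For the inhibitor without feeders quantile normalization gave 1 and leaving out the feeder-supported HSF1 arrays 9. For conditioned medium in H9 the fit without trend gave 3 and that without replicates 2 and 3 in unconditioned medium 0, where the lines gave 4. Leaving out 1 line or array at a time gave 1 to 19 for feeders with DMSO, 3 to 16 with inhibitor, 0 to 5 for the inhibitor without feeders, 1 to 9 for conditioned medium in H9, 5 to 8 in HSF1, 4 to 10 for their difference and 7 to 17 for the lines. The cause of these changes was not tested. Where arrays were left out, the fit also had fewer arrays. In the medium experiment the replicate block gave 5, 9, 4 and 12, and same-numbered replicates were not paired (correlations of deviations from -0.268 to 0.132, 2 of 9 best with their own number). Of 958 gene values under alternatives 724 kept direction and side of the threshold, 223 lost the call, 8 gained it and 3 turned. H2BC5 with the inhibitor on feeders turned to -0.076, both with HSF1 left out and with only its 2 arrays on feeders left out, and MACROH2A1 with conditioned medium in H9 turned to 0.10 with probe sets without the suffixes of shared probes. Signal near background limits the low members.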

Other observations

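Cells of the same line without feeders and without inhibitor differed in histone gene levels between the experiments. In H9, H2BC12 stood at 10.22 with DMSO and at 8.56 to 8.70 in unconditioned medium, and H2AC6 at 8.92 and at 7.10 to 7.21. In HSF1, H2BC12 stood at 9.63 and at 9.22 to 9.28, and H2AC6 at 9.12 and at 8.06 to 8.19. The DMSO condition has 1 array per line, and these differences were not tested.

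In unconditioned medium the gene with the smallest p for HSF1 minus H9 was RBBP7 (-0.78) in the chaperone list, ERI1 (-0.60) in the processing list and POLA1 (-0.90) in the S phase list (limma adjusted p = 1.61e-07, 7.63e-05 and 1.28e-07). RBBP7 is a histone-binding subunit of several chromatin complexes, ERI1 an exonuclease that trims histone messages and POLA1 a subunit of the polymerase that primes replication. ASF1B, an H3-H4 chaperone, was higher in HSF1 by 0.44. Of 13 processing genes 3 were lower and none higher, of 22 chaperone genes 2 were higher and 3 lower, and of 21 S phase genes 3 were higher and 4 lower, while 10.2% of all genes tested were higher and 13.4% lower.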
